A study of Mus musculus with 15 samples.

Results

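The tripartite motif (TRIM) genes encode a family of E3 ubiquitin ligases and related proteins, and their transcripts were followed here in MC38 tumours treated with activators of nucleic acid sensing. Members were taken by name: genes whose Ensembl identifier maps to the symbol Trim followed by a number and at most 1 letter from a to e. This gave 51 members among 17712 measured genes. The annotation holds 68 such symbols, and the other 17 were not analysed here. A total of 39 members had at least 1 CPM (read counts scaled to library size) in every library, and 7 had means under 1 CPM in all groups.

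MC38 is a mouse colon carcinoma line, grown here under the skin of C57BL/6 mice to about 5 mm. Every tumour received 1 injection of 100 µL and was collected 24 h later. Vehicle (PBS with 5% DMSO and 5% glucose) was given to 3 tumours, BO-112 (50 µg) to 4, DMXAA (100 µg) to 4 and both agents to 4. BO-112 is poly I:C, an analogue of double-stranded RNA, complexed with a carrier, and DMXAA activates the mouse DNA-sensing adaptor STING. The comparisons ask which TRIM genes each agent, or the pair, changed within a day.

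As background, a typical TRIM protein carries a RING domain that recruits a ubiquitin-conjugating enzyme, 1 or more B-boxes and a coiled coil, followed by a variable tail that sets what it binds. Several members with a PRYSPRY tail act in antiviral defence, either on viral capsids or on the sensing pathways themselves. Others repress chromatin, organise microtubules or degrade muscle proteins. Many of the antiviral members are themselves interferon-stimulated genes.

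Between 12725316 and 19660511 reads were counted per library. Skeletal muscle markers summed to 219 to 1102 CPM in vehicle 2, BO-112 1, DMXAA 1 and DMXAA 3, and to at most 40.0 CPM in the other 11 libraries. These 4 are called muscle-high below. DMXAA 2 and DMXAA 3 were low in long transcripts: the median log2 deviation of genes of at least 6374.5 bases, the longest decile, was -0.68 and -0.43. Of 7 listed epithelial markers 3 were measured, with mean levels over all libraries of 0.693 CPM for Epcam, 0.669 for Krt19 and 21.7 for Cdh1. As levels of whole tumours, they do not show what the labelled carcinoma cells express. The samples are labelled as biological replicates, and in bulk tumour RNA fewer cells of a type and less RNA per cell cannot be told apart.

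BO-112 against vehicle raised 11 TRIM members and lowered 2 at an adjusted p under 0.05 (limma, adjusted over all genes). Of all genes, 7.64% were higher and 4.31% lower in this comparison, against 21.6% and 3.92% of the members. With total count scaling the split was 10 higher and 5 lower, and the median of all genes moved from -0.04 to -0.20. The raised members were Trim30a, Trim30b, Trim30c, Trim30d, Trim12a, Trim12c, Trim34a, Trim6, Trim25, Trim21 and Trim14, with log2 changes of 0.98 to 3.80. Trim36 and Trim2 were lower. The median log2 change over all 51 members was 0.07, beside -0.04 over all genes, so the family median shifted little. Members that did not pass were not shown to be unchanged: 9 of these 38 had an unadjusted p under 0.05. Counting those that passed too, it was 22 of 51 members and 4647 of 17712 genes. Without DMXAA 2 and 3, 21 members passed in either direction, beside 4439 of 17712 genes. Summed over the 11 raised genes, the level was 441 ± 78.5 CPM with vehicle (SD, n = 3) and 1466 ± 128 CPM with BO-112 (SD, n = 4). The other 40 members summed to 1638 ± 14.5 and 1682 ± 51.0 CPM. The same comparison chose the 11 genes, so the rise of their sum follows from the choice and nothing is read from it.

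**Figure D1:**
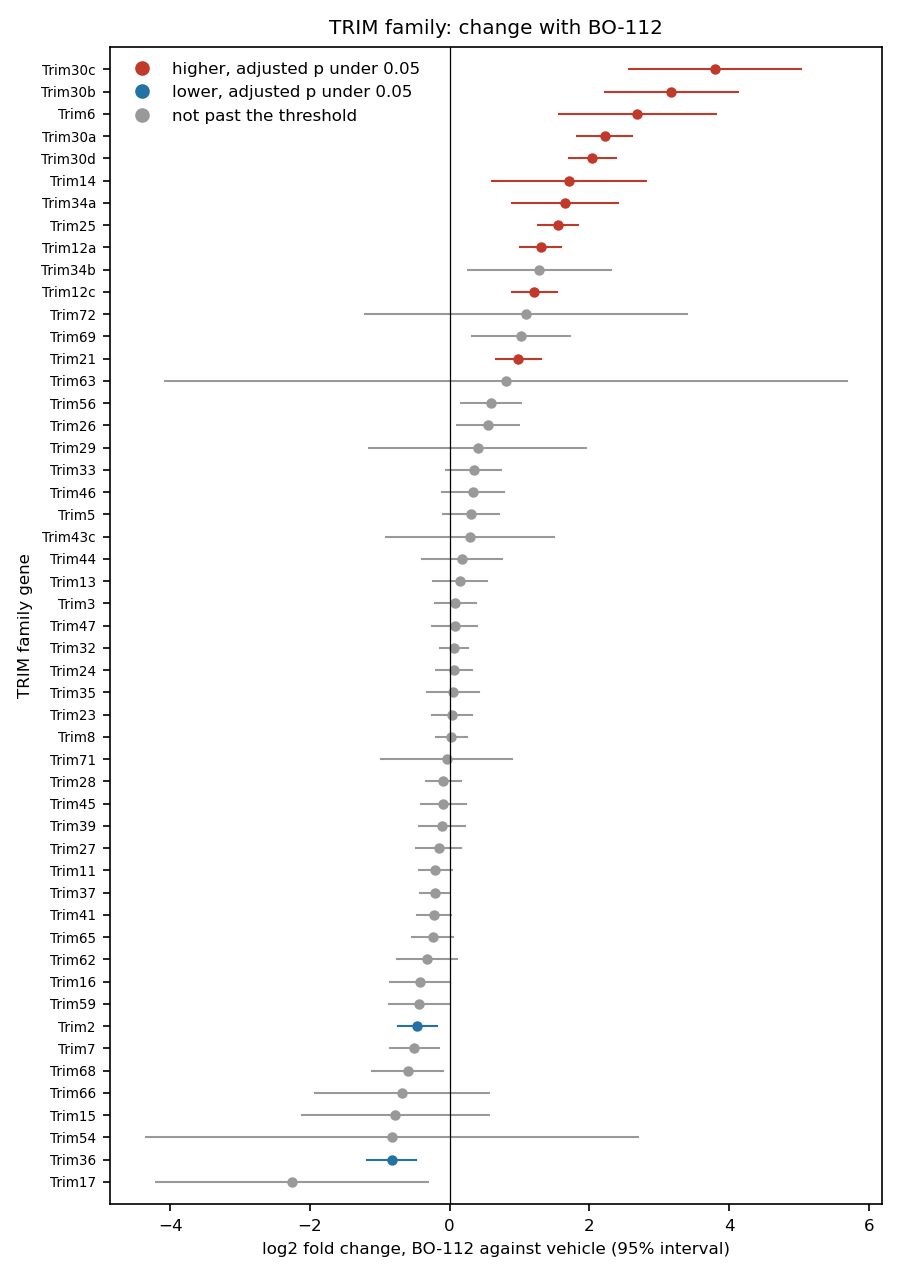
Log2 fold change of each of the 51 TRIM members, BO-112 (n = 4) against vehicle (n = 3), with 95% intervals from limma. Members past an adjusted p of 0.05 are coloured: 11 lie to the right, led by Trim30c at 3.80, and 2 to the left, while the intervals of Trim63 and Trim54 are the widest.

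The mouse relatives of the antiretroviral factor TRIM5 gave most of the raised set. Of 10 measured genes of this Trim5-like group, 8 rose with BO-112 and none fell, beside 7.64% higher and 4.31% lower of all genes. The median log2 change of the 10 was 1.85, and the class was chosen with earlier results of these data known. In the RefSeq annotation all 10 lie in 1 stretch of chromosome 7 that holds 18 annotated genes, 11 of them protein-coding, in the order Trim6, Trim34a, Trim5, Trim12a, Trim34b, Trim12c, Trim30b, Trim30c, Trim30a and Trim30d. The 2 that did not pass were Trim5 at 0.30 ± 0.19 (adjusted p = 0.341) and Trim34b at 1.28 ± 0.48 (adjusted p = 0.0993). Trim34b was scarce, with means of 0.298 CPM for vehicle and 0.624 CPM for BO-112. It passed without vehicle 1 (adjusted p = 0.0336) and without DMXAA 2 and 3 (0.0465). Genes that passed and genes that did not thus lie side by side in this stretch, which does not show that their responses differ.

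With BO-112, Trim30c and Trim30b had the largest log2 changes of the 51 members. Trim30a (ENSMUSG00000030921.18) encodes a protein known to restrain NF-kB signalling by removing the adaptors TAB2 and TAB3. Its level was 108, 110 and 76.3 CPM in the vehicle tumours, 416, 526, 408 and 463 CPM with BO-112, 201, 139, 124 and 181 CPM with DMXAA, and 321, 328, 234 and 264 CPM with both agents. No DMXAA tumour overlapped the vehicle range, and every tumour given both agents lay between all DMXAA and all BO-112 tumours. The BO-112 change was 2.22 ± 0.19 (SE, log2) with an adjusted p of 2.98e-06.

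Trim30d (ENSMUSG00000057596.14), the next protein-coding gene in that order, stood at 42.1, 43.4 and 33.1 CPM with vehicle and at 150, 179, 148 and 170 CPM with BO-112. It had 79.9, 64.3, 51.7 and 70.7 CPM with DMXAA and 123, 121, 89.7 and 98.8 CPM with both. The 4 groups did not overlap at any point, and the order was vehicle, DMXAA, both agents, BO-112. With BO-112 the log2 change was 2.04 ± 0.16 (adjusted p = 2.12e-06). Stretches of 150 bases are shared between the transcripts of Trim30a and Trim30d, making up 3.48% and 4.02% of each, so a small part of their reads could be counted to either.

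Trim30b and Trim30c were scarce without treatment. Trim30b (ENSMUSG00000052749.10) had 2.67, 2.75 and 1.33 CPM with vehicle, 25.4, 24.2, 14.6 and 15.5 CPM with BO-112, 20.8, 4.64, 7.52 and 17.4 CPM with DMXAA, and 19.3, 12.9, 11.7 and 19.5 CPM with both. All 12 treated tumours were above the vehicle range, and the 3 treated groups overlapped one another. Trim30c (ENSMUSG00000078616.3) had 1.67, 1.91 and 1.63 CPM with vehicle, 27.5, 32.5, 21.9 and 17.4 CPM with BO-112, 9.50, 1.02, 3.15 and 9.07 CPM with DMXAA, and 13.6, 12.4, 6.54 and 12.5 CPM with both. Here DMXAA 2 lay below all vehicle tumours. The BO-112 changes were 3.17 ± 0.45 for Trim30b (adjusted p = 0.000244) and 3.80 ± 0.58 for Trim30c (adjusted p = 0.000477).

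Trim12c and Trim12a are close relatives of Trim5. Trim12a (ENSMUSG00000066258.14) read 30.3, 32.2 and 24.3 CPM with vehicle, 68.1, 78.8, 65.4 and 72.1 CPM with BO-112, 38.8, 40.1, 30.4 and 35.2 CPM with DMXAA, and 54.5, 58.5, 42.6 and 48.4 CPM with both. Trim12c (ENSMUSG00000057143.16) read 37.5, 38.5 and 28.0 CPM with vehicle, 71.5, 91.3, 76.9 and 79.7 CPM with BO-112, 48.0, 49.4, 35.9 and 46.7 CPM with DMXAA, and 68.0, 64.6, 53.0 and 53.5 CPM with both. For both genes the BO-112 tumours stood above all others, and the DMXAA range overlapped that of vehicle. The BO-112 changes were 1.30 ± 0.14 for Trim12a (adjusted p = 2.09e-05) and 1.21 ± 0.15 for Trim12c (adjusted p = 8.23e-05).

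Trim34a (ENSMUSG00000056144.15) had 16.1, 19.0 and 13.6 CPM with vehicle and 44.9, 58.2, 49.2 and 50.5 CPM with BO-112. It had 25.3, 6.08, 19.2 and 23.6 CPM with DMXAA and 37.3, 40.9, 33.4 and 29.1 CPM with both. The DMXAA tumours spread from below to above the vehicle range, with DMXAA 2 the lowest of all 15. The BO-112 change was 1.65 ± 0.36 (adjusted p = 0.00648), and 8.81% of its transcript stretches occur in Trim34b. Trim6, whose protein makes free ubiquitin chains that activate the kinase IKK epsilon, averaged 0.804 ± 0.235 CPM (SD, n = 3) with vehicle and 5.09 ± 0.978 CPM (SD, n = 4) with BO-112, a log2 change of 2.69 ± 0.53 (adjusted p = 0.00341).

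**Figure D2:**
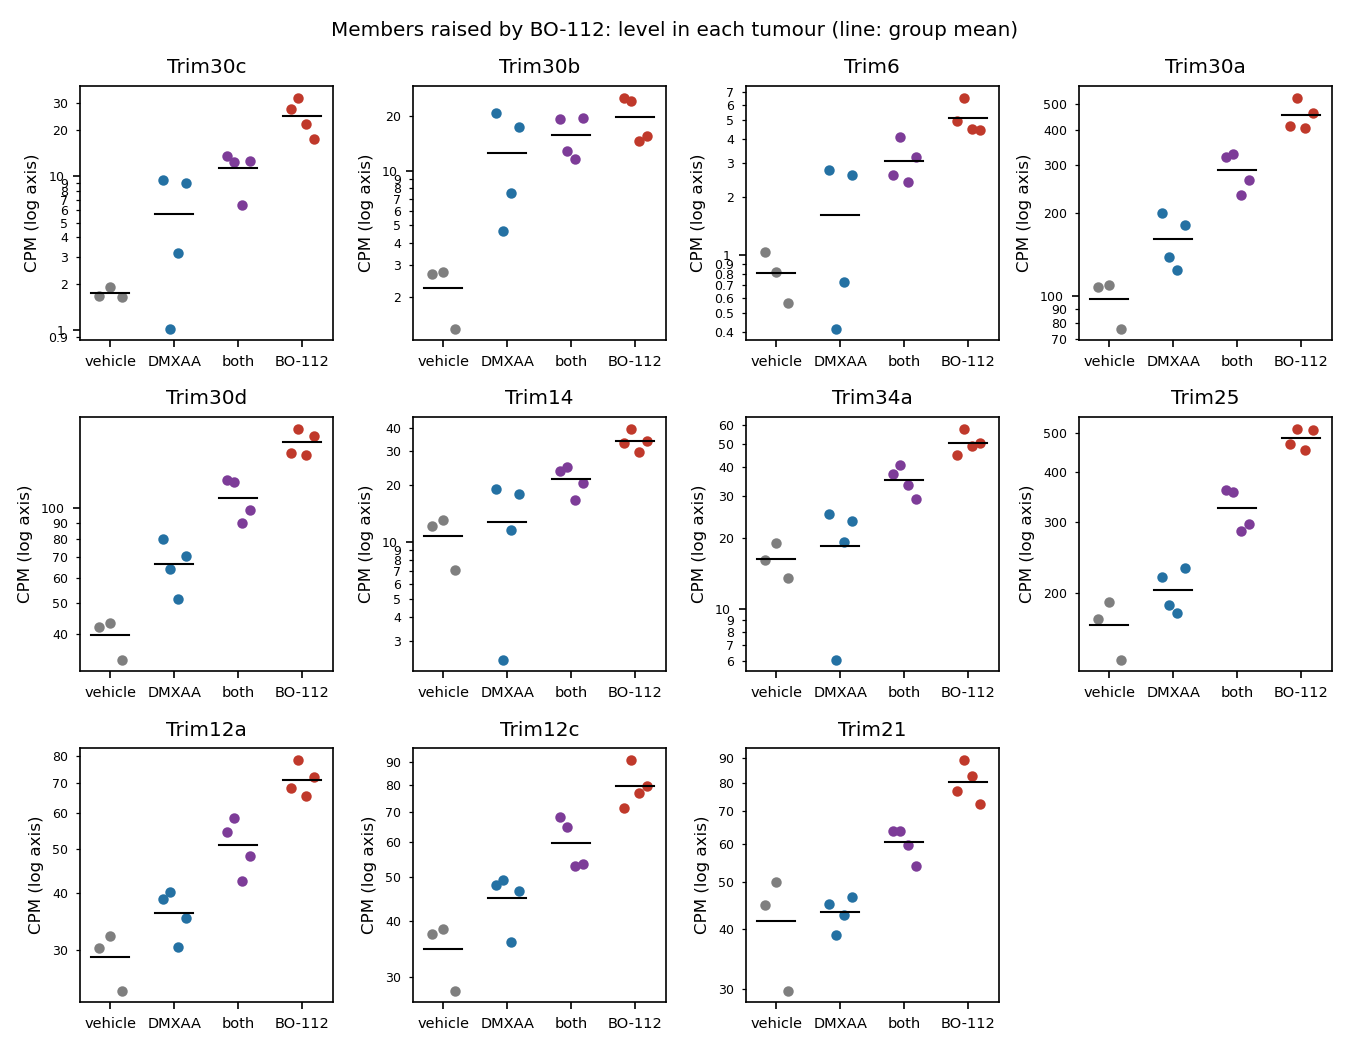
Level of the 11 members raised by BO-112 in each of the 15 tumours, in CPM on a log axis, with a line at each arithmetic group mean. In each panel these means run vehicle, DMXAA, both agents, BO-112, although Trim14 with DMXAA is below vehicle on the log2 scale (-0.08) and 8 of 11 are above vehicle there without vehicle 3 or with total count scaling, and for Trim30d no 2 groups overlap.

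Of 15 measured regulators of sensing outside the Trim5-like group, 3 rose and none fell, beside 7.64% higher and 4.31% lower of all genes. The class median was 0.04. Trim25 (ENSMUSG00000000275.17), the ligase known for activating the RNA sensor RIG-I, had 173, 190 and 137 CPM with vehicle and 468, 512, 452 and 508 CPM with BO-112. Its DMXAA tumours had 219, 188, 178 and 231 CPM and those given both agents 361, 357, 286 and 297 CPM. The DMXAA range reached into that of vehicle, and the group given both lay apart from the other 3. The BO-112 change was 1.55 ± 0.14 (adjusted p = 3.73e-06).

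Trim21 (ENSMUSG00000030966.14), a cytosolic receptor for antibody-coated viruses, had 44.7, 50.0 and 29.8 CPM with vehicle, 77.0, 89.5, 83.0 and 72.5 CPM with BO-112, 45.0, 38.8, 42.8 and 46.6 CPM with DMXAA, and 63.9, 63.8, 59.8 and 54.0 CPM with both. The DMXAA tumours lay within the vehicle range. The BO-112 change was 0.98 ± 0.15 (adjusted p = 0.000501). Trim14 (ENSMUSG00000039853.19), an adaptor of the mitochondrial protein MAVS that lacks a RING domain, had 12.1, 13.1 and 7.09 CPM with vehicle, 33.0, 39.5, 29.6 and 33.8 CPM with BO-112, 18.9, 2.38, 11.5 and 17.8 CPM with DMXAA, and 23.6, 24.9, 16.6 and 20.3 CPM with both. DMXAA 2 was again the lowest tumour. The Trim14 change with BO-112 was 1.70 ± 0.52 (adjusted p = 0.0436).

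With BO-112 against vehicle, the calls for Trim14 and for the lowered genes were the least stable. Trim14 no longer passed when any 1 of 12 libraries was left out, with the largest adjusted p, 0.178, without vehicle 3. It passed with an adjusted p of 2.48e-05 without DMXAA 2 and 3. The other 10 raised members passed in all 23 alternative analyses, which included leaving out the 4 muscle-high libraries.

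Other regulators of sensing did not pass with BO-112. Trim56 (ENSMUSG00000043279.10), which acts on STING and other sensors, had 124, 116 and 85.6 CPM with vehicle and 162, 189, 153 and 148 CPM with BO-112, then 100, 54.4, 65.7 and 103 CPM with DMXAA and 128, 146, 124 and 126 CPM with both. Its BO-112 tumours lay above all vehicle tumours, with a log2 change of 0.59 ± 0.20 (adjusted p = 0.068). Trim26 (ENSMUSG00000024457.17), reported to act on nuclear IRF3, had 62.0, 59.1 and 55.0 CPM with vehicle, 87.1, 87.5, 84.3 and 83.0 CPM with BO-112, 72.7, 29.9, 46.9 and 57.7 CPM with DMXAA, and 71.5, 80.5, 61.4 and 72.6 CPM with both. Its BO-112 change was 0.54 ± 0.21 (adjusted p = 0.108), and the low values again fell in DMXAA 2 and 3. With DMXAA 2 and 3 left out, Trim56 and Trim26 passed for BO-112 against vehicle (adjusted p = 0.00208 and 0.000889), since the fit shares 1 spread over the groups.

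Trim59 (ENSMUSG00000034317.15), a membrane-anchored member, had 61.7, 67.7 and 67.7 CPM with vehicle, 48.0, 44.7, 52.7 and 49.4 CPM with BO-112, 59.5, 119, 79.4 and 68.2 CPM with DMXAA, and 61.4, 47.7, 84.5 and 61.5 CPM with both. BO-112 had the lowest group mean, with a change of -0.43 ± 0.21 (adjusted p = 0.194). DMXAA 2 was the highest of all tumours.

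Trim36 and Trim2 fell with BO-112. Trim36 (ENSMUSG00000033949.13) encodes a microtubule-associated ligase and stood at 6.58, 6.99 and 6.79 CPM with vehicle, 3.37, 3.58, 4.56 and 3.86 CPM with BO-112, 6.55, 6.23, 6.27 and 5.65 CPM with DMXAA, and 2.82, 3.35, 3.84 and 3.62 CPM with both. The tumours thus fell into 2 ranges, with BO-112 or without it. The change was -0.83 ± 0.16 (adjusted p = 0.00321). Trim2 (ENSMUSG00000027993.17), an NHL-repeat ligase known from neurons, had 41.0, 32.1 and 39.7 CPM with vehicle, 25.3, 28.8, 28.0 and 26.3 CPM with BO-112, 27.3, 22.1, 24.5 and 31.8 CPM with DMXAA, and 30.1, 34.2, 31.8 and 35.6 CPM with both. Either agent alone lay below vehicle, and the pair overlapped it. The BO-112 change was -0.47 ± 0.13 (adjusted p = 0.0304). Leaving out vehicle 1, vehicle 3, BO-112 1, BO-112 3 or BO-112 4 ended the Trim2 call and left 1 lowered member. Without the 4 muscle-high libraries neither passed (Trim36 -0.75, adjusted p = 0.0757, and Trim2 -0.54, adjusted p = 0.0815). Cycling-cell markers moved in the same comparison, with 4 of 7 lower, beside 4.31% of all genes. Their sums were 1300 to 1541 CPM with vehicle and 914 to 1037 CPM with BO-112. The part of cycling cells in the Trim36 and Trim2 changes was not tested.

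The TIF1 co-repressors, which silence chromatin through a PHD finger and bromodomain, had 0 of 4 members past the threshold and a median of -0.02. Trim28 (ENSMUSG00000005566.15), the KAP1 co-repressor, read 268, 282 and 288 CPM with vehicle, 260, 254, 260 and 273 CPM with BO-112, 245, 307, 345 and 290 CPM with DMXAA, and 271, 239, 279 and 228 CPM with both. Its BO-112 change of -0.09 had a 95% interval of -0.34 to 0.16. Trim24 (ENSMUSG00000029833.18) read 50.9, 42.5 and 42.4 CPM with vehicle, 46.0, 46.4, 40.6 and 56.4 CPM with BO-112, 46.7, 42.5, 37.5 and 42.9 CPM with DMXAA, and 43.0, 45.1, 45.9 and 50.2 CPM with both. Its groups overlapped throughout, and the interval of the BO-112 change was -0.20 to 0.32. Trim33 (ENSMUSG00000033014.13) read 66.4, 64.9 and 65.4 CPM with vehicle, 85.2, 77.6, 87.3 and 82.8 CPM with BO-112, 61.6, 33.0, 51.0 and 69.5 CPM with DMXAA, and 72.4, 81.1, 67.8 and 78.7 CPM with both. The BO-112 tumours were above vehicle, but the change of 0.34 ± 0.18 did not pass (adjusted p = 0.257).

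Trim32 (ENSMUSG00000051675.14), an NHL-repeat ligase expressed widely, was among the steadiest members, with 27.2, 27.0 and 30.4 CPM with vehicle, 28.8, 28.1, 30.0 and 31.1 CPM with BO-112, 25.3, 23.8, 28.2 and 26.5 CPM with DMXAA, and 28.0, 28.0, 27.7 and 27.8 CPM with both. The interval of its BO-112 change was -0.13 to 0.27. In the NHL class Trim2 was the 1 of 4 that passed, and in the class of 2 measured COS-box (microtubule-binding) genes it was Trim36. The other COS-box gene, Trim46 (ENSMUSG00000042766.18), known from the axon initial segment, had 11.1, 10.1 and 15.4 CPM with vehicle, 16.9, 17.5, 14.9 and 12.0 CPM with BO-112, 8.6, 4.87, 7.66 and 7.03 CPM with DMXAA, and 13.2, 13.5, 11.4 and 10.7 CPM with both. Its DMXAA tumours were the low group. Among 13 members in no class, 0 passed, with a median of -0.21. The shares of all genes with BO-112 were 7.64% higher and 4.31% lower.

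Over the 38 members that did not pass with BO-112, the log2 changes ran from -2.25 to 1.28 with a median of 0.03, and 9 had an unadjusted p under 0.05. Those nearest to the threshold were Trim69, at 1.02 ± 0.33 (adjusted p = 0.0572), and Trim7, at -0.50 ± 0.17 (adjusted p = 0.0629). Trim69 averaged 1.24 ± 0.693 CPM with vehicle (SD, n = 3) and 2.31 ± 0.44 CPM with BO-112 (SD, n = 4), and its ranges overlapped. Trim7 averaged 6.85 ± 0.511 and 4.86 ± 0.719 CPM, and its ranges did not. The lower end of the changes was Trim17, at 0.57 ± 0.156 and 0.234 ± 0.258 CPM, of which 15.9% of the 150-base stretches also occur in the histone gene Hist3h2a.

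Per kilobase of the longest transcript, the mean level of Trim28 led the family with vehicle, at 86.0 CPM per kb, followed by Trim35 (45.2), Trim8 (37.8), Trim47 (37.2), Trim25 (29.8) and Trim30a (26.0). With BO-112 the order became Trim30a (120 CPM per kb), Trim25 (86.8), Trim28 (80.7) and Trim30d (49.4). Trim30a and Trim25 thus went from below Trim35 to the top positions, while Trim28 changed little in level. The 11 raised members made up 21.1% ± 2.93 of the summed family CPM with vehicle (SD, n = 3) and 46.5% ± 2.23 with BO-112 (SD, n = 4). The shares were 28.0% ± 3.19 with DMXAA and 37.5% ± 3.39 with both (SD, n = 4 each). The vehicle and BO-112 tumours chose the 11 members, so the rise in share from vehicle to BO-112 follows from the choice.

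**Figure D3:**
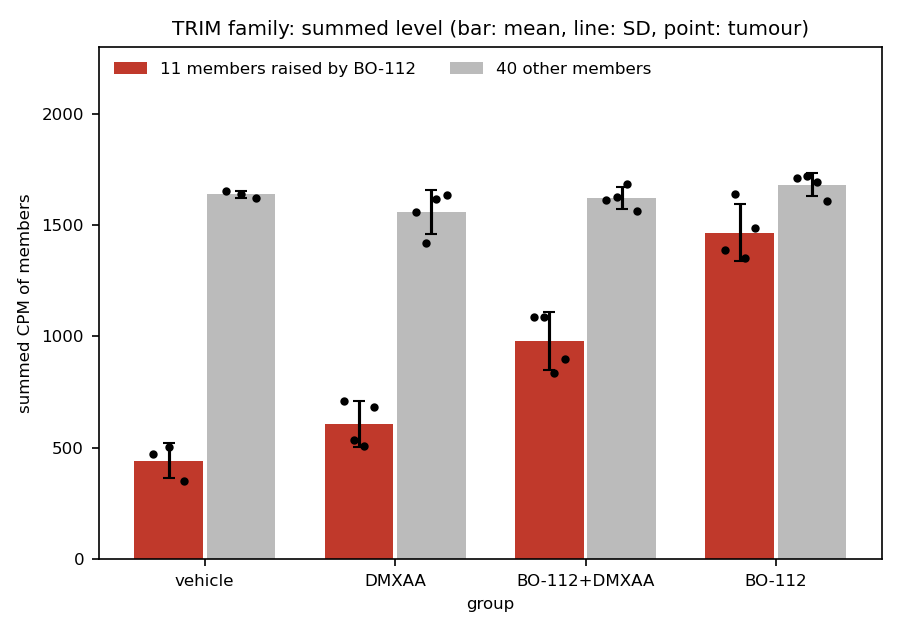
Summed CPM of the 11 members raised by BO-112 and of the other 40 members, in each tumour with the group means. The first sum runs from 353 to 502 with vehicle and from 1353 to 1638 with BO-112, and the second stays between 1419 and 1719 in all 15 tumours. BO-112 against vehicle chose the 11 members, so the rise of the first sum with BO-112 follows from that choice.

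Promoter sequence was examined across the family, in which 8 of the 11 raised genes lie in 1 stretch of chromosome 7. RefSeq windows on GRCm38.p6, 250 bases before to 50 after each start, were matched for 39 members. The core of the interferon-stimulated response element, searched on both strands as GAAA, any 2 bases and GAAA again (TTTC, 2 bases and TTTC on the other strand), was held by 9 of the 39 (23.1%) and by 3.99% of 27025 genes. It occurred in 6 of 10 raised members with a window (Trim12a, Trim12c, Trim21, Trim30a, Trim30d and Trim34a), in 1 of 1 lowered (Trim2) and in 2 of 28 others (Trim5 and Trim26). The longer form, which ends in GAAACT, was held by 3 members (Trim30a, Trim30d and Trim34a) and 0.303% of all genes. A search of the bases before the start alone gave 5 members, 12.8%, beside 3.46% of all genes. The core was then in 3 of 10 raised members (30%) and 2 of 28 not called (7.14%). The windows of Trim25, Trim30b, Trim30c and Trim6 held no match, and members without a window were not searched.

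The 80 bases before the start are shown for Trim30a and Trim30d, neighbouring protein-coding genes that were both raised, and for Trim12c (raised) and Trim5 (not past the threshold), which share the core. Each is on the minus strand of chromosome 7, at chr7:104465194-104465273, chr7:104507850-104507929, chr7:104353350-104353429 and chr7:104288107-104288186 in turn. The windows shown were picked for holding the core in these 80 bases. Trim30a has another window, in which the core begins at base 3 after the start. Capitals mark the core as it reads on the strand of the gene.
Trim30a: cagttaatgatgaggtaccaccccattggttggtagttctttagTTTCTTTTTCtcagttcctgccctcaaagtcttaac
Trim30d: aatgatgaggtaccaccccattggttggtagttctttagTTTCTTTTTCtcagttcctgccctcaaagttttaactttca
Trim12c: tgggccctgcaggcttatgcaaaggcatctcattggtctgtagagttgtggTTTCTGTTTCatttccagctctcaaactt
Trim5: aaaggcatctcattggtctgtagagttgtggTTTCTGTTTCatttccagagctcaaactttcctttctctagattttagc

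The core begins 36 bases before the start in Trim30a, 41 in Trim30d, 29 in Trim12c and 49 in Trim5. Aligned, the Trim30a and Trim30d stretches had 74 identical bases, 1 mismatch and 10 gap positions, and those of Trim12c and Trim5 had 58 identical, 2 mismatches and 40 gap positions. Trim12c and Trim5 thus carry the same core in a near-identical setting, with BO-112 changes of 1.21 ± 0.15 and 0.30 ± 0.19, a difference between genes that was not tested. Their transcripts share 2.56% (Trim12c) and 3.74% (Trim5) of 150-base stretches with other genes.

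TRIM proteins that carry other symbols were fixed as a separate list of 6 measured genes. Pml, which builds nuclear bodies, rose with BO-112 by 1.21 ± 0.26 (adjusted p = 0.00679), from 72.5, 72.2 and 49.1 CPM to 144, 171, 140 and 136 CPM. Rnf207, known from the heart, fell by 1.84 ± 0.52 on the log2 scale (adjusted p = 0.0304), from 0.961, 0.515 and 0.801 CPM to 0.247, 0.270, 0.166 and 0.160 CPM. The pyrin gene Mefv stood at 0.85 (adjusted p = 0.078), and Mid1, Mid2 and Bspry at 0.26 to 0.29.

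Of 35 measured partners of the TRIM proteins in sensing and ubiquitin transfer, 19 rose with BO-112 and none fell, beside 7.64% of all genes higher, with a median log2 change of 0.40. The smallest p-values belonged to the ubiquitin-like modifier Isg15 at 2.89 ± 0.20 (adjusted p = 1.32e-06), the scaffold Tank at 1.17 ± 0.10, the transcription factor Irf7 at 2.99 ± 0.26 (both 3.64e-06) and the RNA-binding helicase Dhx58 at 1.93 ± 0.18 (5.88e-06). Named after their values were seen, the Trim25 substrate RIG-I (Ddx58) rose by 1.36 ± 0.16 and the MDA5 gene Ifih1 by 1.81 ± 0.17. With DMXAA 3 partners rose (Isg15, Irf7 and the Fc receptor Fcgr1), beside 1.08% of all genes, and with both agents 12 rose, beside 2.49%. In BO-112 against DMXAA 18 partners were higher, beside 11.2% of all genes. In that comparison 2 were lower, Ddx41 at -0.31 and Irf3 at -0.36, beside 10.2%.

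DMXAA against vehicle raised 2 TRIM members, Trim30b and Trim30d, and lowered none. Of all genes 1.08% were higher and 0.169% lower, against 3.92% of the members higher. Trim30b changed by 2.31 ± 0.45 (adjusted p = 0.0211) and Trim30d by 0.75 ± 0.16 (adjusted p = 0.033). Trim30a, at 0.71 ± 0.19, had an adjusted p of 0.0801 although its groups did not overlap. Trim46 stood at -0.80 ± 0.21 (adjusted p = 0.0771) and Trim2 at -0.51 ± 0.13 (adjusted p = 0.0723). Both raised calls were lost without vehicle 1, without vehicle 3 and without the 4 muscle-high libraries, and 1 was lost without BO-112 1 or without DMXAA 1. Without DMXAA 2 and 3 there were 5 raised members: Trim30a, Trim30b, Trim30c, Trim30d and Trim6. Leaving out vehicle 2 or DMXAA 4 gave 1 lowered member, Trim2. Members of at least 5 kb that BO-112 did not raise, 7 in number, had a median log2 deviation of -0.48 in DMXAA 2 and -0.44 in DMXAA 3.

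Both agents against vehicle raised 7 members (Trim30a, Trim30b, Trim30c, Trim30d, Trim25, Trim12a and Trim12c) and lowered Trim36. The background was 2.49% of genes higher and 0.181% lower, against 13.7% and 1.96% of members. The log2 changes were 1.55 ± 0.19 for Trim30a (adjusted p = 0.000255), 1.45 ± 0.16 for Trim30d (0.00016), 0.97 ± 0.14 for Trim25 (0.000834) and 2.85 ± 0.45 for Trim30b (0.00182). Trim30c stood at 2.64 ± 0.58 (adjusted p = 0.0203), Trim12a at 0.82 ± 0.14 (0.00319), Trim12c at 0.79 ± 0.15 (0.00734) and Trim36 at 0.498 times its vehicle level (0.00221). Trim21 at 0.57 ± 0.15 (adjusted p = 0.0598), Trim6 at 1.94 ± 0.53 (0.0716), Trim34a at 1.12 ± 0.36 (0.146) and Trim14 at 1.02 ± 0.52 (0.493) were above vehicle in all 4 tumours without passing. Without vehicle 3 there were 5 raised members, since Trim30c and Trim12c no longer passed. There were 6 without vehicle 1 or without the both-agent library 1, 2 or 4, and 11 without DMXAA 2. The call for Trim30c was lost in 8 of 23 alternatives, among them each vehicle library left out, with the largest adjusted p, 0.0937, without vehicle 3. The 3 comparisons with vehicle share their vehicle tumours.

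Both agents against BO-112 gave no call in either direction by limma, among the members or among all genes (0%). At an unadjusted p under 0.05 there were 9 members (17.6%) and 9.54% of all genes, and limma-voom on the recovered reads also called 0 members. The tumours given both agents lay wholly below the BO-112 tumours in 15 of 51 members (29.4%), beside 6.11% of all genes. Trim30a differed by -0.67, with a 95% interval of -1.03 to -0.30 and an adjusted p of 0.19, and Trim25 by -0.58, with an interval of -0.85 to -0.31 and an adjusted p of 0.139. When these 2 groups were fitted alone 7 members were lower, and without DMXAA 2 and 3 the number was 6.

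Both agents against DMXAA, which uses none of the BO-112 or vehicle tumours in its means, gave 3 members higher and 1 lower. Of all genes 0.717% were higher and 0.169% lower, against 5.88% and 1.96% of members. Trim25 was higher by 0.67 ± 0.13 (adjusted p = 0.0286), Trim30a by 0.84 ± 0.17 (0.0354) and Trim30d by 0.70 ± 0.15 (0.0371), while Trim36 was lower, at -0.87 ± 0.15 (0.0188). All 11 members raised by BO-112 alone had a positive difference here, with a median of 0.70, beside a median of 0.35 over the 1353 genes raised by BO-112. With DMXAA 2 and 3 left out, 10 of the 11 were positive and their median was 0.40. The number of higher members fell to 0 without DMXAA 3 or without the both-agent library 1, 2 or 4, and to 1 without vehicle 1, BO-112 1, BO-112 3, BO-112 4 or DMXAA 2. It went to 13 without DMXAA 1 and to 11 without DMXAA 4. Without BO-112 2 it was 2. The lowered member was lost without DMXAA 3 or without the both-agent library 1 or 2, and there were 2 without DMXAA 1. It was 0 higher and 0 lower without the 4 muscle-high libraries, and likewise without DMXAA 2 and 3.

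**Figure D4:**
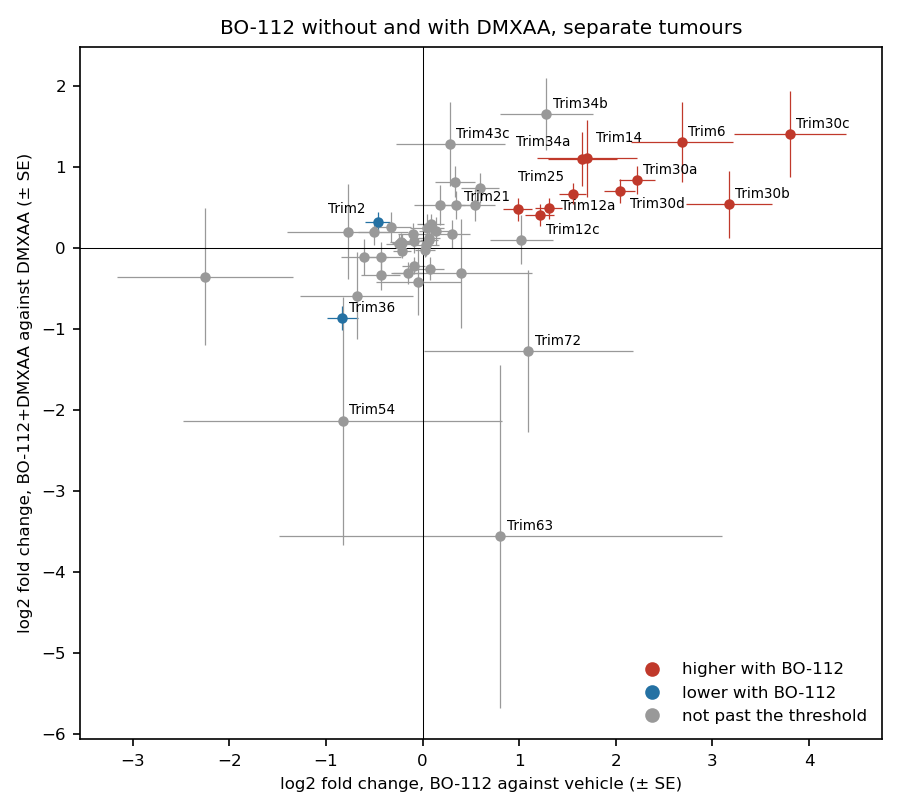
Log2 change of each member with BO-112 against vehicle (x axis) and with both agents against DMXAA (y axis), with SE bars; the axes share no tumours. The 11 raised members lie above 0 on the y axis, from 0.41 for Trim12c to 1.41 for Trim30c, and Trim36 lies below 0 on both axes. With DMXAA 2 and 3 left out, which is not drawn, 10 of the 11 were above 0 on the y axis.

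BO-112 against DMXAA, the agents set side by side, gave 17 members higher and 2 lower. The background was 11.2% and 10.2% of genes, against 33.3% and 3.92% of members. Of the raised members, 10 of 11 were higher with BO-112 than with DMXAA, beside 66.1% of the 1353 genes raised by BO-112. The same BO-112 tumours chose these genes, so nothing is read from that count. The smallest p-values belonged to Trim25 at 1.26 ± 0.13 (adjusted p = 4e-05), Trim30d at 1.29 ± 0.15 (9.41e-05) and Trim30a at 1.51 ± 0.17 (9.62e-05). Trim12a was higher by 0.98 ± 0.13 (adjusted p = 0.00023), Trim21 by 0.89 ± 0.14 (0.00081) and Trim12c by 0.83 ± 0.14 (0.0012). Trim34a was higher by 1.63 ± 0.33 (adjusted p = 0.00449), Trim30c by 2.57 ± 0.53 (0.00522), Trim6 by 2.06 ± 0.49 (0.011) and Trim14 by 1.79 ± 0.48 (0.0193). Trim30b, at 0.86 ± 0.41, did not pass (adjusted p = 0.131). A further 7 higher members had not passed against vehicle: Trim56 (1.06), Trim46 (1.14), Trim26 (0.79), Trim33 (0.68), Trim3 (0.52), Trim34b (1.56) and Trim69 (0.98). Trim36 and Trim59 were lower, at -0.69 and -0.70. Without the 4 muscle-high libraries 11 were higher and 0 lower. With DMXAA 2 and 3 left out, 16 members passed in either direction, beside 1936 of 17712 genes. Trim34b (adjusted p = 0.138), Trim69 (0.144), Trim6 (0.0546) and Trim59 (0.135) then no longer passed, and Trim16 passed as lower, at -0.59. Trim56, Trim26 and Trim33 still passed but stood at 0.68, 0.40 and 0.35. The median over the 11 raised members was 0.94 in that run, beside 1.29 with all libraries. Leaving out BO-112 1 or DMXAA 3 left 1 lower member. The doses of the 2 agents differ in kind and mass, and no matched dose was given.

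In the arithmetic mean CPM over tumours, all 11 raised members ran in the order vehicle, DMXAA, both agents, BO-112. On the log2 scale Trim14 with DMXAA was below vehicle, at -0.08, so 10 of 11 were above vehicle there, and 8 of 11 without vehicle 3 or with total count scaling. Of all 1353 genes raised by BO-112, 64.4% had arithmetic means in the order vehicle, DMXAA, both agents, BO-112. The tumours given both agents lay wholly below the BO-112 tumours in 10 of the 11, Trim30b being the exception, beside 46.8% of those genes. Over all features this held for 15 of 51 members and 6.11% of all genes. The tumours given both agents lay wholly above the DMXAA tumours in 7 (63.6%), beside 23.4% of those genes and, over all features, 10 of 51 members and 4.54% of all genes. The choice of the raised genes used the vehicle and BO-112 tumours, so the ends of this order were fixed by it. That choice also favours BO-112 tumours lying above those given both agents. Vehicle 3 was the lowest vehicle tumour for all 11 genes, and DMXAA 2 or DMXAA 3 was the lowest DMXAA tumour for each, in 6 and 5 genes.

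The interaction asks whether the change that DMXAA brings depends on BO-112. It is the log2 change from BO-112 to both agents minus that from vehicle to DMXAA. It was below 0 at the threshold for 5 members and above 0 for 1, beside 1.15% and 0.198% of all genes. With total count scaling the numbers were 1 and 0. Trim30d had -1.34 ± 0.22 (adjusted p = 0.0105): its log2 change with DMXAA was 0.75 on vehicle and -0.59 on BO-112. Trim30a had -1.38 ± 0.25 (adjusted p = 0.0171), from 0.71 and -0.67. Trim25 (-0.88 ± 0.19, adjusted p = 0.0338), Trim30b (-2.63 ± 0.61, 0.046) and Trim12a (-0.81 ± 0.19, 0.0482) had the same sign. Trim2 had 0.79 ± 0.18 (adjusted p = 0.0402), from -0.51 on vehicle and 0.28 on BO-112. The Trim30d call held in all 22 alternatives. That of Trim30a was lost without vehicle 3 (adjusted p = 0.0558), without the 4 muscle-high libraries (0.0783) and under total count scaling (0.0729). The number below 0 was 1 without vehicle 3 and without the 4 muscle-high libraries. It was 2 without vehicle 1, any 1 BO-112 library, DMXAA 1 or the both-agent library 3 or 4. It was 3 without DMXAA 4 or the both-agent library 1, 8 without DMXAA 2 and 10 without DMXAA 2 and 3. The Trim2 call held only where vehicle 2, DMXAA 2 or DMXAA 4 was the library left out.

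The muscle members were high in the muscle-high tumours, which lay in 3 of the 4 groups. Trim63 (ENSMUSG00000028834.14) encodes MuRF1, a ligase that marks myofibril proteins for degradation. Its level was 1.30 CPM in vehicle 2, 14.9 in BO-112 1, 7.69 in DMXAA 1 and 3.85 in DMXAA 3, the 4 libraries high in muscle genes. Of the other 11 libraries, BO-112 4 had 1 read and 10 had 0, a count that allows up to 0.153 to 0.232 CPM per library by counting error (3 reads). Trim54 had 0.454, 1.01, 2.83 and 1.01 CPM in those 4 libraries and at most 2 reads elsewhere, and Trim72 had 1.48, 2.44, 3.36 and 2.11 CPM, with 1.17 CPM in BO-112 2 as the highest of the others. None of the 3 passed in any comparison. With BO-112 Trim63 stood at 0.81 ± 2.29 on the log2 scale (adjusted p = 0.874). The muscle marker sum, over 14 of 15 listed genes, spanned 30.7 to 219 CPM in vehicle tumours, 16.6 to 653 CPM for BO-112, 12.7 to 1102 CPM for DMXAA and 18.4 to 26.3 CPM for both. The muscle markers Ckm, Mb and Pvalb had 0 reads in 5, 9 and 6 libraries.

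**Figure D5:**
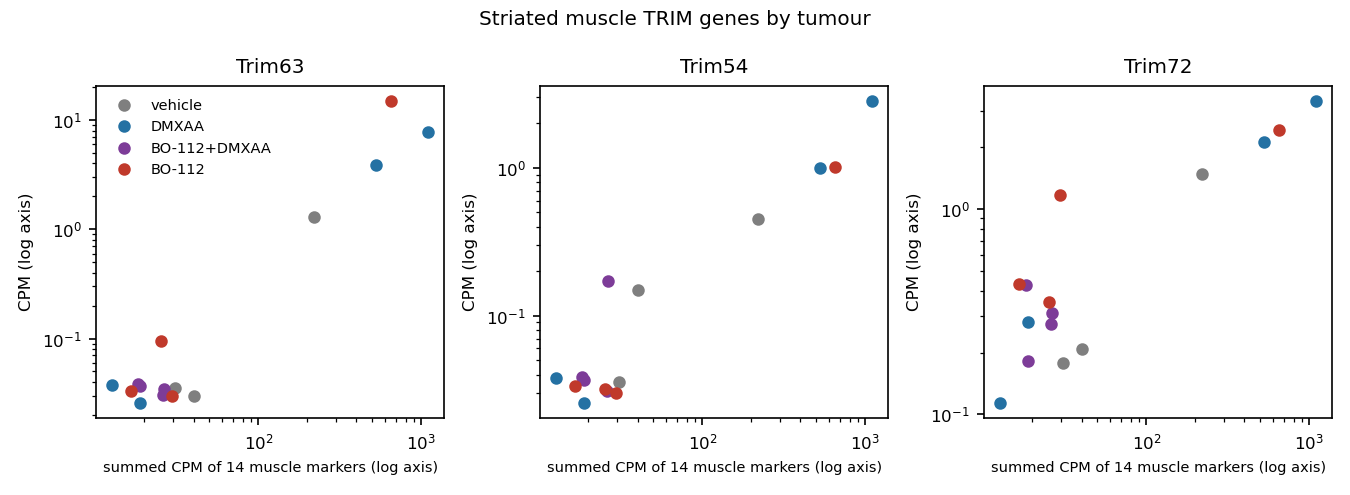
Level of Trim54, Trim63 and Trim72 in each tumour against the summed level of 14 skeletal muscle markers, both in CPM on log axes. The 4 tumours with marker sums of 219 to 1102 CPM hold the highest values of all 3 genes, and a tumour with 0 reads is drawn at the level of 0.5 reads.

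Markers of other cells were set beside the raised genes. Of all genes, 7.64% were higher and 4.31% lower with BO-112 against vehicle. Macrophage markers summed to 2749 to 3432 CPM with vehicle and 2956 to 3497 with BO-112, with 1 of 10 higher and 2 lower. Neutrophil markers had 4 of 10 higher, with sums of 129 to 188 CPM and 200 to 296 CPM in the same groups. Among T cell markers 0 of 12 passed, with 86.9 to 165 CPM and 96.5 to 133 CPM. Endothelial markers had 1 of 5 higher, with 170 to 193 CPM and 233 to 275 CPM. Of 3 measured epithelial and tumour-line markers, Epcam (-3.10, adjusted p = 0.0251) and Cdh1 (-2.26, adjusted p = 0.00678) were lower with BO-112, and Krt19 stood at 2.25 (adjusted p = 0.0907). Their sums were 27.7 to 85.4 CPM with vehicle, 6.67 to 11.7 CPM with BO-112, 14.6 to 40.5 CPM with DMXAA and 9.38 to 27.2 CPM with both. The part of cell content in the TRIM changes was not tested.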

How the data were processed

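Messenger RNA of 15 tumours was sequenced as stranded libraries with paired reads of 150 bases. STAR, edgeR, limma and the mm39 build are named in the submitters' processing notes as the authors' tools, with no versions. The deposited table holds log2 CPM for 17712 genes, as log2 of scaled reads with 0.5 added. Reads were recovered from it as whole numbers for 100% of values (largest distance 4.4e-08, tolerance 1e-06). A raw table without sample names, 15 value columns, was not used. Symbols came from GENCODE M21 (17636 genes matched, 76 not), and sequences from RefSeq on GRCm38.p6. No coordinates of the authors' build are given.

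R 4.3.3 with limma 3.58.1 fitted 1 mean per group to the log2 CPM of all genes and libraries, with variance trend and robust moderation, and p-values were adjusted by Benjamini-Hochberg over all genes. The fit was also run on simulated data with noise independent between genes. Effects shared across the genes of a library were not simulated. Levels are given in CPM (± SD over tumours) and changes as log2 differences (± SE). The edgeR test planned for raw counts was not run. Members given in every library were the up to 8 with the smallest p per comparison past the threshold, plus a panel of 16; other members past it are named with their change, and a few genes beside a count or an order were chosen after their values were seen. The members, classes and lists were chosen with earlier results of these data known. Alternatives were 2 other scalings, a filter of 1 CPM in 4 libraries, limma-voom, a replicate block, groups fitted alone and each library left out. Leaving out the 4 libraries high in muscle genes, or DMXAA 2 and 3, was chosen after seeing the data.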

Additional observations from a re-analysis of the deposited data

Results flagged for a closer look

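In the group given both agents, Trim30c stood at 6.54 CPM in library 3 and between 12.4 and 13.6 CPM in the other 3. Its gap to the nearest library, divided by the group's range, was 0.869, past the 95% critical value of Dixon's test, and among 63 group ranges checked about 1 in 20 would pass by chance.

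The effect of DMXAA differed between tumours with and without BO-112, by the interaction term of limma, for 6 members: Trim30b (-2.63), Trim30a (-1.38), Trim30d (-1.34), Trim25 (-0.88), Trim12a (-0.81) and Trim2 (0.79). The Trim30d call held in all 22 alternatives. For the others it held in 19 of 22 (Trim30a), 11 (Trim25), 8 (Trim12a), 8 (Trim2) and 6 (Trim30b).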

How the results depend on the processing

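Counts below are members past the threshold. The raised count with BO-112, 11, was 10 to 16 under all alternatives, 10 with total count scaling, without the muscle-high libraries and with the replicate block. The lowered count, 2, was 5 with total count scaling, with groups fitted alone and without DMXAA 2 and 3, 0 without the muscle-high libraries, and 1 to 3 with each library left out. For DMXAA the raised count, 2, was 0 with total count scaling, limma-voom, groups alone and without the muscle-high libraries, 5 without DMXAA 2 and 3, and 0 to 3 with each library left out; the lowered count ran from 0 to 1. For both agents against vehicle, 7 became 11 without DMXAA 2 and 3 and 5 to 11 with each library left out. Against BO-112, 0 lower became 7 with groups alone and 6 without DMXAA 2 and 3. Against DMXAA, 3 higher and 1 lower became 0 and 0 with groups alone, without the muscle-high libraries and without DMXAA 2 and 3, and 0 to 13 and 0 to 2 with each library left out. BO-112 against DMXAA, 17 higher and 2 lower, gave 10 and 1 with groups alone, 11 and 0 without the muscle-high libraries, and 15 to 20 and 1 to 3 with each library left out. In the run without DMXAA 2 and 3, 16 passed there in either direction. In the interaction, 1 above 0 became 0 with total count scaling and without the muscle-high libraries and 0 to 1 with each library left out; 5 below 0 became 1, 3 with limma-voom, 1 without the muscle-high libraries, 10 without DMXAA 2 and 3, and 1 to 8. The promoter count, 9, was 3 for the longer motif and 5 before the start. The causes were not tested. Of 1189 alternatives over 52 named calls, 1016 kept the call, 173 lost it and 0 reversed.

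Total count scaling moved the median log2 change of all genes with BO-112 from -0.04 to -0.20. Same-numbered libraries correlated by 0.0152 on average over 21 pairs, 5 of them above 0.1, and others by -0.0051 over 63. Of 15 libraries, 2 were most alike to one of their own number. These correlations cannot exclude that numbers pair tumours, and the main fit assumed no pairing. The planned edgeR test was not run. With the replicate block the other counts moved by at most 1. Groups of 3 or 4 tumours and the spread of DMXAA 2 and 3 limit all DMXAA comparisons.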
